A study of Mus musculus with 2 samples.

Results

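Wide footprints are stretches of 31 bp or more inside open chromatin that the nuclease DNase I cut less often than the sequence around them. They were chosen by their width alone, as intervals of at least 31 bp in each animal's deposited list of footprints. The animals were 2 male B6CASTF1/J mice, that is, first-generation hybrids between the strains C57BL/6J and CAST, aged 36 days. DNase-seq was run on nuclei of cerebellum tissue, with 1 library per animal and no treatment. Replicate 1 held 27410 wide footprints among 342409, or 8.01% of its list. Replicate 2 held 14106 among 262603, or 5.37%. The mean number was 20758 ± 9407 (SD, n = 2), and the mean share was 6.69% ± 1.86 (SD, n = 2). Both animals form 1 group, so the values below describe 2 maps and no test between conditions was possible. The sequencing depth behind the lists is unknown. The labels give both animals the same donor entry, so the SD may hold little beyond the difference between libraries. Where a pair of values is given, the first is that of replicate 1 and the second that of replicate 2.

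A footprint arises where a bound protein shields DNA from DNase I. Most transcription factors contact a short stretch, whereas a protein with many DNA-binding fingers, a large complex or neighbouring bound factors can shield a longer one. CTCF is a zinc finger protein of insulators and chromatin loop anchors, and its fingers read a long stretch of DNA. TFIIIC is a large complex that binds inside tRNA genes, where it contacts a DNA element called the B box and recruits the machinery of RNA polymerase III. NF-Y is a trimer that binds the CCAAT box of promoters.

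The cerebellar label was checked against promoter peaks. All 10 genes of a granule cell list had a peak within 1 kb of a start in both animals, with median heights of 12.6 and 7.85. Of 6 liver genes only Apob had one, with heights of 2.22 and 1.23. In replicate 1 the granule cell gene Gabra6 was lower than Apob, at 1.91. The lowest granule cell height in replicate 2 was 4.03. Height is the authors' own value for a peak and was used only within an animal's list. In whole tissue, accessibility in fewer cells and weaker accessibility in all cells cannot be told apart.

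The sequences that follow show the recurrent forms of wide footprint on which the later results turn. They were read from the mm10 reference, which carries the C57BL/6J allele, over the interval called in replicate 1. Each example was also wide in replicate 2. Capitals mark the letters searched for. The first 3 are CTCF sites, printed 5′ to 3′ along the CTCF consensus, with the 12 bases of the consensus in capitals. Among the CTCF footprints of 31 to 36 bp in both animals, outside promoters and annotated UTRs, they are those in the highest peaks. They lie in an intron of Nuak1 (chr10:84438192-84438222, minus strand), in intergenic DNA upstream of Slc17a7, a vesicular glutamate transporter gene (chr7:45162371-45162402, plus strand) and in an intron of Zfp286 (chr11:62756906-62756937, plus strand).
Nuak1 CTCF site: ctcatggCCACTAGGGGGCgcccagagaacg
Slc17a7 CTCF site: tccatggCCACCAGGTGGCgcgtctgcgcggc
Zfp286 CTCF site: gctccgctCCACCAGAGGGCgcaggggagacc

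The next 3 are CTCF sites of 41 to 50 bp, chosen in the same way among those that also hold the letters GCANTNCC beginning 16 bp before the consensus. Both stretches are in capitals. They lie in intergenic DNA nearest to Slc22a12 (chr19:6577300-6577343, minus strand), Ptma (chr1:86501760-86501804, plus strand) and Mapre3 (chr5:30806281-30806328, plus strand). Among the CTCF footprints open to printing, which leave out those touching an annotated UTR, the widest in both animals measured 53 bp in each. This site is printed last and lay in intergenic DNA nearest to Tarbp1 (chr8:126497640-126497692, plus strand). No peak height was available for it in replicate 2.
Slc22a12 CTCF site: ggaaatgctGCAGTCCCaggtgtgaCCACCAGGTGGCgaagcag
Ptma CTCF site: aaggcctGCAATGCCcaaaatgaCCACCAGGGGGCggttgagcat
Mapre3 CTCF site: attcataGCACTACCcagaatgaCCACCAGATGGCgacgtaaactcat
Tarbp1 CTCF site: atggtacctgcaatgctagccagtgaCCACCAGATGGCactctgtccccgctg

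Next are 3 footprints inside tRNA genes, from RefSeq, printed along the gene with the B box letters TTCGANNCC in capitals. Among those that begin at base 30 of the gene or later, they are the ones in the highest peaks for 3 different amino acids. They lie in the genes n-TLaag4 for leucine (chr7:120917564-120917603), n-TRtcg5 for arginine (chr7:79466452-79466494) and n-TTcgt5 for threonine (chr16:13437359-13437398), all on the plus strand.
n-TLaag4: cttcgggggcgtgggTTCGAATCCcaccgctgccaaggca
n-TRtcg5: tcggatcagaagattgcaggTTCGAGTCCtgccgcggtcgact
n-TTcgt5: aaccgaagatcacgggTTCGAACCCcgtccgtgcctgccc

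The last set holds CCAAT boxes that face each other, with ATTGG followed by CCAAT and 17 bp from the start of one to the start of the other. They lie in the promoters of Pan2 (chr10:128303286-128303327), Hspa2 (chr12:76404026-76404068), Ercc1 (chr7:19345272-19345311), Osbp (chr19:11965622-11965666) and Atp5b (chr10:128083133-128083182), those in the highest peaks that do not touch an annotated UTR. All are printed along the plus strand.
Pan2: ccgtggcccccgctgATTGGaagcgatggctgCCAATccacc
Hspa2: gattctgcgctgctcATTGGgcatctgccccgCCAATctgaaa
Ercc1: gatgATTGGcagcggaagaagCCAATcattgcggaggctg
Osbp: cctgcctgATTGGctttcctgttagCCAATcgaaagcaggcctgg
Atp5b: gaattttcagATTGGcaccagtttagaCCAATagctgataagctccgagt

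The wide footprints had a median width of 36 and 35 bp, and the widest measured 91 and 79 bp. They covered 19.98% and 14.3% of all footprint bases. Footprints of 31 to 35 bp made up 49.96% and 50.7% of them, those of 36 to 40 bp 22.3% and 21.6%, and those of 41 to 50 bp 25.98% and 26.1%. Only 472 and 238 reached 51 bp. The number per width was lower at each step from 31 bp (3508 and 2055 footprints) to 37 bp (1274 and 629). The steps were then smaller up to 46 bp (790 and 420), and larger again up to 50 bp (263 and 89). The threshold itself marked no break. Footprints of 30 bp, just outside it, numbered 3779 and 2351, stood in promoters in 29.6% and 33.7% of cases and had median peak heights of 4.62 and 3.73. Those of 31 bp stood in promoters in 30.4% and 34.3% of cases and had median heights of 4.86 and 4.01.

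**Figure D1:**
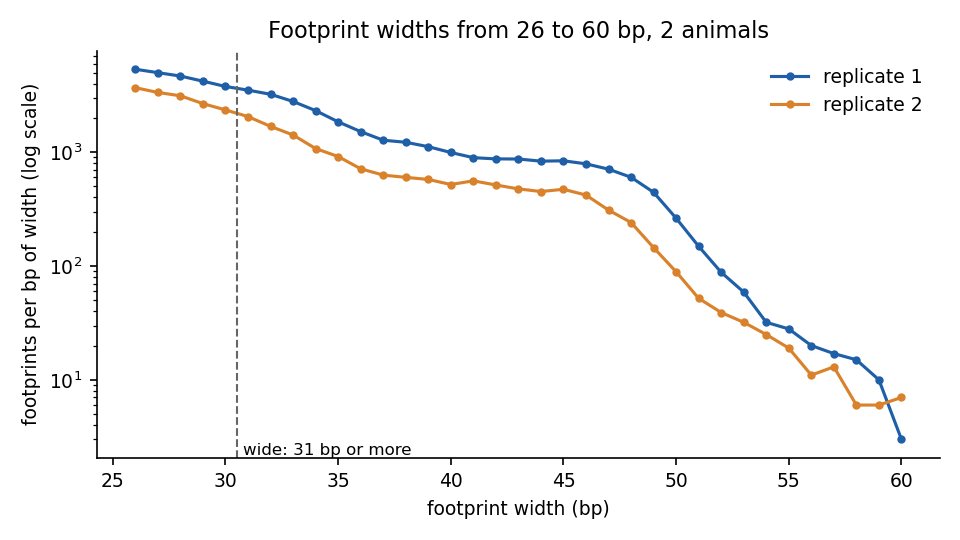
Number of footprints at each width from 26 to 60 bp on a log scale, for replicates 1 and 2. The dashed line marks the minimum of 31 bp. Both curves are flatter from 37 to 46 bp, where the number goes from 1274 and 629 to 790 and 420, than on either side.

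Wide footprints lay in high peaks, close to the middle. In replicate 1 the median height of the peak holding the midpoint was 6.22 for wide and 1.64 for narrower footprints. In replicate 2 the medians were 5.14 and 2.005. The ratio of medians was 3.80 and 2.56, a mean of 3.18 ± 0.87 (SD, n = 2). Within promoters alone it was 2.63 and 2.00. Width and height are read from the same cuts, so this relation is a description and no independent measure. Peaks were split by height into 5 classes with equal numbers of peaks. The wide share of the footprints in them was 0.00741% and 0% in the lowest class, 2.42% and 1.62% in the middle class, and 16.3% and 10.2% in the highest. The median distance from the peak centre was 21 and 15 bp for wide footprints, against 41 and 43 bp for narrower ones. A wide footprint stood in 18878 and 11830 peaks, or 13.5% and 10.3% of all peaks. Most of those peaks held 1, and no peak held more than 4 in replicate 1 or 5 in replicate 2. The midpoint lay outside every peak of the larger list for 3260 and 763 wide footprints, while 94.5% and 96.8% of wide footprints touched such a peak. The midpoint lay in a stretch that the authors gave a false discovery rate at or below 0.001 for 99.3% and 99.6% of wide footprints, against 81.9% and 88.1% of narrower ones.

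About 1 wide footprint in 3 stood at a promoter, defined as within 1 kb of a protein-coding start. The promoter share was 31.2% and 40.8%, a mean of 35.99% ± 6.8 (SD, n = 2). For narrower footprints it was 35.1% and 35.7%, so wide footprints were below them in replicate 1 and above them in replicate 2. Introns held 32.6% and 27.6% of the wide footprints, intergenic DNA 29.96% and 26.3%, and exons 6.32% and 5.31%. The intergenic share was above that of narrower footprints (22.7% and 22.9%) in both animals. In the highest class of peaks the promoter share of wide footprints was 35.5% and 52.3%, against 54.5% and 55.4% of narrower footprints there. The promoter share also differed by width. It was 29.7% and 39.3% at 31 to 35 bp, 36.95% and 48.6% at 36 to 40 bp, 27.5% and 35.7% at 41 to 50 bp, and 54.2% and 66.0% at 51 bp or more. The order of these 4 classes was the same in both animals.

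**Figure D2:**
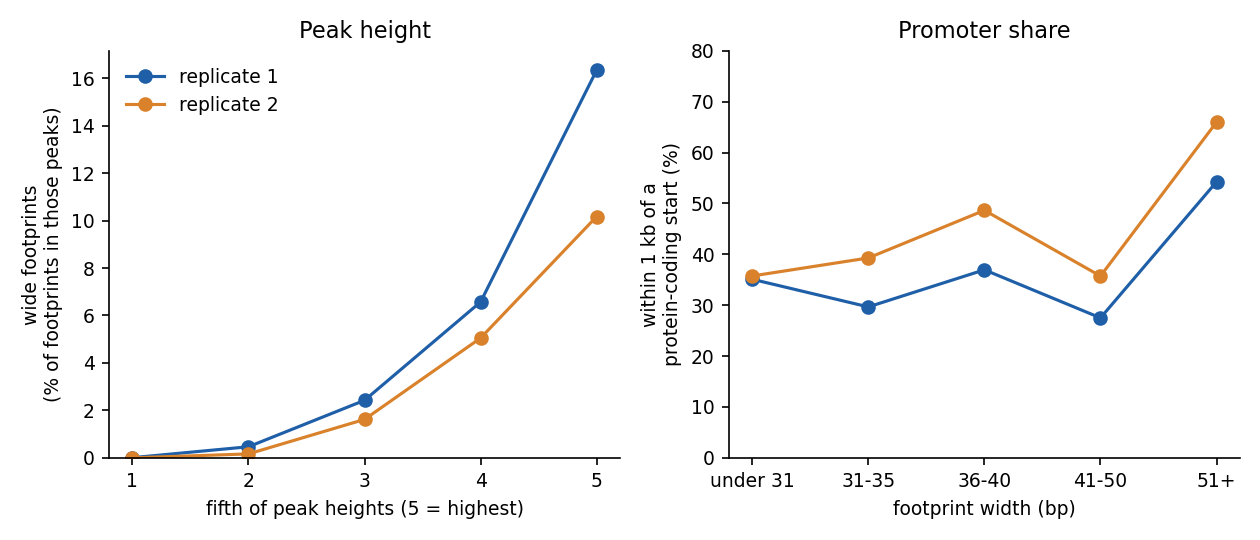
Left, wide footprints as a percentage of all footprints in each of 5 classes of peak height, for replicates 1 and 2, with the highest class at 16.3% and 10.2%. Right, percentage of footprints within 1 kb of a protein-coding start by width class, lowest at 41 to 50 bp among the wide ones and highest at 51 bp or more.

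At promoters, wide footprints kept to the upstream side of the start. Their midpoint lay upstream in 70.2% and 74.6% of cases, against 53.1% and 57.1% of narrower promoter footprints. The median position was 51 and 45 bp upstream for wide footprints and 9 and 19 bp upstream for narrower ones. Among footprints 40 to 21 bp upstream, 11.48% and 10.76% were wide. Nearby bins were not far from this, with 11.66% and 8.60% from 100 to 81 bp upstream and 9.93% and 9.67% from 60 to 41 bp upstream. From 100 to 119 bp downstream the wide share was 2.91% and 2.52%. It was also low further downstream, with 3.54% and 4.06% from 240 to 259 bp and 1.53% and 0.576% from 460 to 479 bp. A total of 25.25% and 34.6% of wide footprints lay within 250 bp of a start, a mean of 29.9% ± 6.6 (SD, n = 2), against 24.9% and 26.6% of narrower ones. The start base itself was covered by 1249 and 1058 wide and by 5484 and 4873 narrower footprints. A longer interval covers a given base more often by its length alone.

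**Figure D3:**
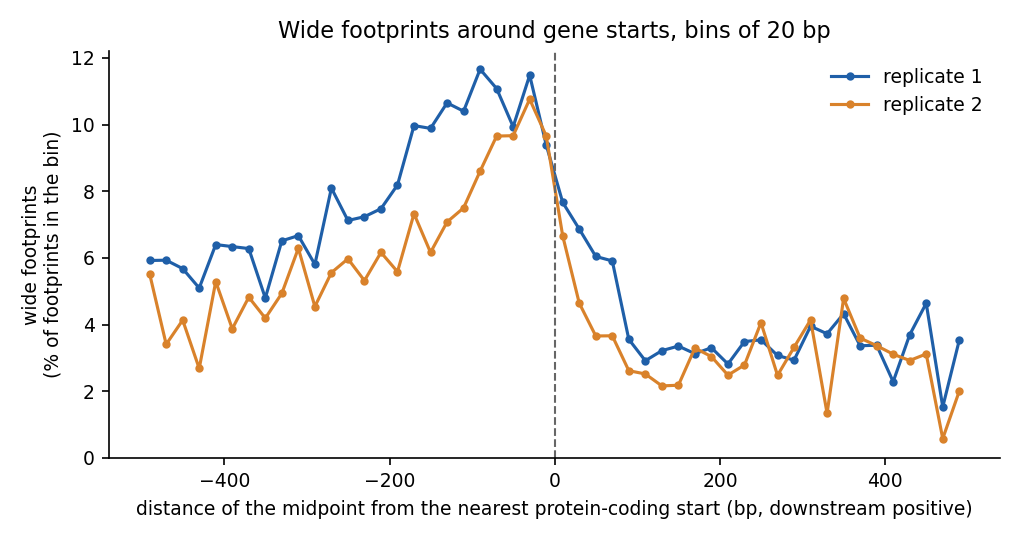
Wide footprints as a percentage of all footprints in bins of 20 bp around the nearest protein-coding start, for replicates 1 and 2. The share is 11.66% and 8.60% at 100 to 81 bp and 11.48% and 10.76% at 40 to 21 bp upstream of the start. Downstream it is 2.91% and 2.52% at 100 to 119 bp and 3.54% and 4.06% at 240 to 259 bp.

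Most wide footprints of replicate 2, the shorter list, were found again in replicate 1. Of replicate 2's wide footprints, 76.4% were matched by a wide footprint of replicate 1 with an overlap of at least 50% of both intervals. The same 10779 pairs are 39.3% of replicate 1's list, which is longer, and the mean of the 2 shares was 57.9% ± 26.2 (SD, n = 2). Against footprints of any width, 74.05% and 94.2% were matched, compared with 30.9% and 42.0% of narrower footprints. Longer intervals and higher peaks go with these shares, and their part was not tested. The width in the other animal was not used to choose a footprint. It had a median of 29 and 35 bp over the touched wide footprints, a mean of 32 ± 4.2 (SD, n = 2), against 13 and 19 bp for narrower ones. For footprints of 31 to 35 bp the median was 27 and 33 bp, for those of 36 to 40 bp 27 and 37 bp, for those of 41 to 50 bp 35 and 45 bp, and for those of 51 bp or more 40 and 50 bp. Of the pairs, 69.3% differed by at most 3 bp in width, and 1056 were the same interval in both animals.

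CTCF sites were the most common recognised content of wide footprints. The CTCF consensus, a sequence of 12 bases that allows 2 letters at some positions, was searched on both strands in the central 31 bp. It stood in 10.5% and 11.47% of wide footprints, a mean of 10.98% ± 0.69 (SD, n = 2), and in 0.893% and 1.41% of windows of the same length on narrower footprints. With 1 mismatch allowed, a choice made after the data were seen, the shares were 27.6% and 29.65% against 3.22% and 4.27%. Outside promoters 14.4% and 18.02% of wide footprints held the consensus, and in promoters 1.78% and 1.98%. The difference from narrower footprints was also present in the highest class of peaks, with 10.3% and 8.51% against 0.600% and 0.748%. Read the other way, 50.6% and 31.6% of all footprints with the consensus were wide.

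Wide CTCF footprints took 2 forms, which the printed sites illustrate. Those of 31 to 36 bp that covered the consensus, 1806 and 971 in number, began a median of 6 bp before it and ended 14 bp after it in both animals. Those of 41 to 50 bp, 916 and 523 in number, began 22 bp before it in both animals and ended 12 and 11 bp after it. The longer form thus reached further on the upstream side and no further on the other. Few lay between, with 170 and 140 footprints of 37 to 40 bp. A further 2074 and 2630 footprints under 31 bp also covered the whole consensus, from a median of 5 bp before it to 10 and 9 bp after it, so the minimum of 31 bp sets the lower edge of the shorter form. Protection of 15 bp or more before the consensus was found in 98.5% of the longer form in both animals and in 2.60% and 4.325% of the shorter. The bases upstream also differed between the forms. In the longer form, the base 16 bp before the consensus was G at 66.4% and 74.4% of sites, and the base 15 bp before it was C at 60.4% and 60.8%. The base 12 bp before was T at 70.2% and 75.3%, and the base 10 bp before was C at 65.5% and 65.6%. In the shorter form the commonest base at these 4 positions reached at most 38.6% in replicate 1 and 38.2% in replicate 2. The letters GCANTNCC began 16 bp before the consensus in 72 and 46 footprints of the longer form, 7.86% and 8.795%, and in 7 and 3 of the shorter, 0.388% and 0.309%. These letters were chosen after the base counts were seen.

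A CTCF site of one form was seldom of the other form in the second map. Of the longer form touched by a footprint there, 49.3% and 87.4% were again 41 to 50 bp, and 10% and 5.24% were 31 to 36 bp. Of the shorter form, 40.1% and 73.8% were again 31 to 36 bp, while 1.55% and 9.64% were 41 to 50 bp. Many others were touched by a footprint of under 31 bp: 57.03% of the shorter and 32.3% of the longer form of replicate 1, and 11.2% and 4.08% of those of replicate 2. Both forms were rare in promoters (4.65% and 5.87% of the shorter, 6.004% and 8.41% of the longer) and shared the rest about evenly between introns and intergenic DNA. Median peak heights were 3.86 and 2.68 for the shorter and 4.69 and 3.51 for the longer form, below the 6.22 and 5.14 of all wide footprints.

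**Figure D4:**
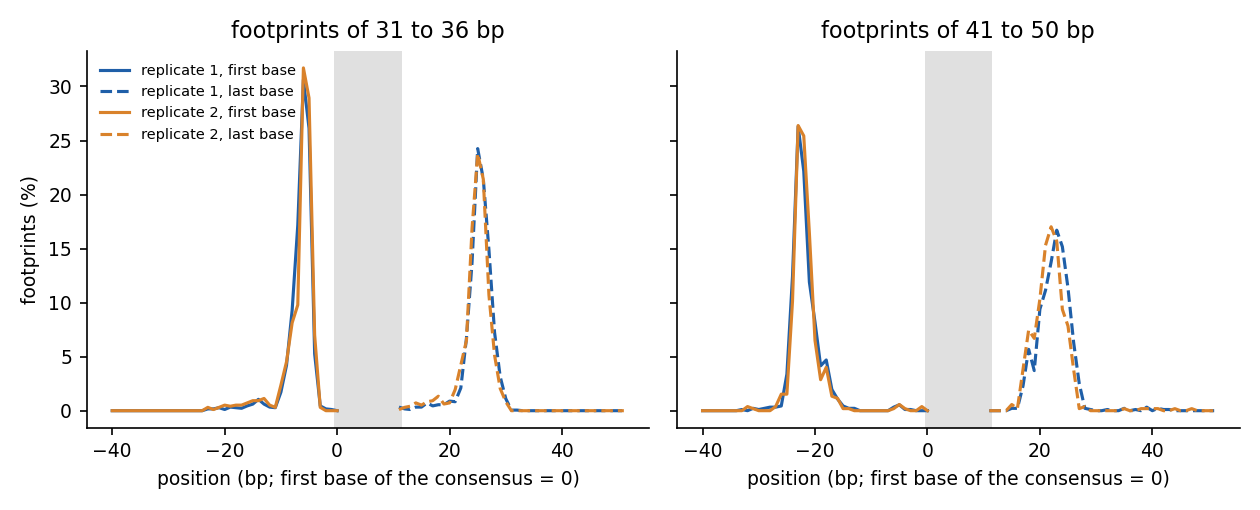
First base (solid) and last base (dashed) of footprints covering the CTCF consensus, as a percentage of footprints, by position from the first base of the consensus (grey band). In footprints of 41 to 50 bp the first base sits 22 bp before the consensus, against 6 bp in footprints of 31 to 36 bp.

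Among the other 21 motifs, several of promoter factors were more common in wide than in narrower footprints within promoters. NRF1, a factor of nuclear genes for mitochondria, has the motif CGCNTGCGC. It stood in 4.345% and 6.58% of wide promoter footprints, against 1.97% and 2.31% of narrower ones. The SP/KLF box GGGGCGGG, bound by zinc finger proteins such as SP1, stood in 6.945% and 11.05%, against 5.765% and 6.03%. The cAMP response element TGACGTCA, the site of CREB, stood in 1.29% and 2.29%, against 0.409% and 0.4965%. ACTACAATT of ZNF143, a factor found at promoters, stood in 0.234% and 0.417%, against 0.0443% and 0.0732%. NF-Y's CCAATNNG stood in 2.93% and 3.33%, against 1.525% and 1.88%. In the highest class of peaks, over all places, the motifs differed in how they compared. There NRF1 stood in 2.15% and 4.02% of wide and 2.08% and 2.14% of narrower footprints, and NF-Y in 1.76% and 2.27% against 1.75% and 2.07%. SP/KLF stood in 3.05% and 6.43% against 4.72% and 4.50%, lower in wide footprints of replicate 1 and higher in those of replicate 2. In this class a smaller share of wide than of narrower footprints stood in promoters, most clearly in replicate 1. The part of place in these values was not tested. The cAMP response element, in 0.6765% and 1.499% against 0.478% and 0.503%, and ZNF143, in 0.0998% and 0.262% against 0.0444% and 0.0665%, were higher in wide footprints of both animals.

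Outside promoters, the ZIC motif CAGCAGGNG stood in 5.002% and 6.19% of wide footprints, against 1.41% and 1.48%. ZIC proteins are transcription factors of granule cells. Of all wide ZIC matches 47.5% and 44.9% also held the CTCF consensus, which shares letters with it. Without those, the ZIC share over all places was 1.97% and 2.23%, against 0.903% and 0.884%. Only exact matches to the CTCF consensus were removed. The part of sites with 1 mismatch to it in the remaining share was not tested. A match in a footprint does not show which protein is bound. The NEUROD E-box ACAGATGG of the neuronal basic helix-loop-helix factors stood in 1.52% and 2.77% outside promoters, against 1.11% and 1.66%.

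Other motifs were less common in wide footprints in both animals when all peaks were counted. TGANTCA of AP-1, the dimer of Fos and Jun, stood in 0.325% and 0.248% of wide and 0.601% and 0.715% of narrower footprints. CTTGGCA of the NFI family stood in 1.32% and 1.52%, against 1.875% and 2.10%. In the highest class of peaks NFI stood in 1.24% and 1.64% against 1.39% and 1.56%, so that there replicate 2 went the other way. ATGCAAAT of the POU family stood in 0.0511% and 0.0142%, which is 14 and 2 footprints, against 0.0727% and 0.09215%. At least 1 of the 22 motifs was found in 23.0% and 30.1% of wide and 11.6% and 13.5% of narrower footprints. Base composition differed between the animals. G or C made up 60.4% and 63.3% of the central 31 bp of wide footprints and 60.4% and 58.7% of that of narrower ones. CpG dinucleotides numbered 1.48 and 1.93 per window in wide footprints and 1.503 and 1.445 in narrower ones. NRF1, SP/KLF and cAMP response element motifs hold CpG or are rich in G and C, and the part of base composition in their shares was not tested.

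The widest footprints were rich in the CCAAT box, and its density and pairs were examined after those values were seen. The pentamer CCAAT, on either strand, occurred 2.54 and 2.79 times per 1000 bp of wide promoter footprints and 0.967 and 1.21 times per 1000 bp of narrower ones. By width its density was 2.03 and 2.205 at 31 to 35 bp, 2.31 and 2.61 at 36 to 40 bp, 3.26 and 3.398 at 41 to 50 bp, and 4.37 and 6.04 at 51 bp or more. Only boxes wholly inside an interval were counted, over its full width. A shorter interval has fewer places for a box per bp, so part of these differences follows from construction, mainly that from narrower footprints. In promoter footprints of 51 bp or more, 10 and 11 of 256 and 157 held 2 or more boxes, or 3.91% and 7.01%. The share was 0.609% and 0.7815% over all wide promoter footprints and 0.0172% and 0.0214% over narrower ones. A longer interval has more room for 2 boxes, and the part of length was not tested.

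Facing boxes at a fixed distance stood out among these pairs. ATTGG followed by CCAAT with 17 bp from start to start lay inside 16 and 18 wide footprints. With each orientation counted on its own, no other distance from 8 to 40 bp was found in more than 3 wide footprints of either animal. All 16 and all 18 were promoter footprints, and 14 and 15 lay upstream of the start. Their median width was 43 and 42 bp. In the other animal 14 and 15 of them were matched by a wide footprint. Besides the 5 promoters printed above, the facing boxes were wide in both animals at Epb41, Slc39a3, Pde6d, Rbm4, Ptpn18, Aars, Dnal4, Proser3 and Amer1. Atp5b encodes the beta subunit of ATP synthase, Aars the alanyl-tRNA synthetase, Ercc1 a subunit of a DNA repair nuclease and Hspa2 a heat shock protein. Widths were 63 and 61 bp at Epb41 and 31 and 31 bp at Proser3, the extremes of the set. When the facing boxes lay in the central 31 bp, 13 of 23 and 11 of 19 footprints were wide, 56.5% and 57.9% beside the 8.01% and 5.37% of all footprints. The distance of 17 bp was picked after the distances inside wide footprints were seen. A high wide share therefore follows in part from that choice. The part of place and peak height in it was not tested. RefSeq promoters of 300 bp (GRCm38.p6) held the facing boxes at 17 bp in 52 of 32851 cases, 0.158%. That was the most common of the distances from 8 to 40 bp, whose median was 12 promoters.

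Wide footprints of tRNA genes formed a small set of similar placement. RefSeq places 403 tRNA genes on the chromosomes, of which 231 and 219 were touched by a footprint and 180 and 142 by a wide one. In both animals 137 were touched by a wide footprint. Of the 407 and 350 footprints touching a tRNA gene, 203 and 158 were wide, or 49.9% and 45.1%, beside 8.01% and 5.37% of all footprints. They covered the downstream part of the gene, from a median of base 39 in both animals to base 76 and 75, just past the median gene length of 72 bp. The printed n-TRtcg5 footprint ran from base 34 to base 76 of its gene. The median width was 39 and 38 bp, and 52.7% and 51.3% measured 36 to 40 bp. The B box letters lay inside 65.0% and 68.35% of them. A total of 24 and 17 began before the gene instead. The median height of their peaks was 6.19 and 5.27. A wide footprint of the other animal matched 74.9% and 93.0%, the latter above the 76.4% of all wide footprints of replicate 2. By amino acid, tRNA genes for threonine had a wide footprint at 13 and 12 of 17 genes and those for arginine at 16 and 15 of 24, whereas those for cysteine had one at 5 and 5 of 57. These totals are all annotated genes for the amino acid, including any without a footprint. Over the whole genome, 152 and 116 wide footprints held TTCGANNCC in the central 31 bp and 132 and 107 of these touched a tRNA gene. The B box stood in 0.5545% and 0.822% of wide footprints and 0.1225% and 0.0986% of narrower ones.

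**Figure D5:**
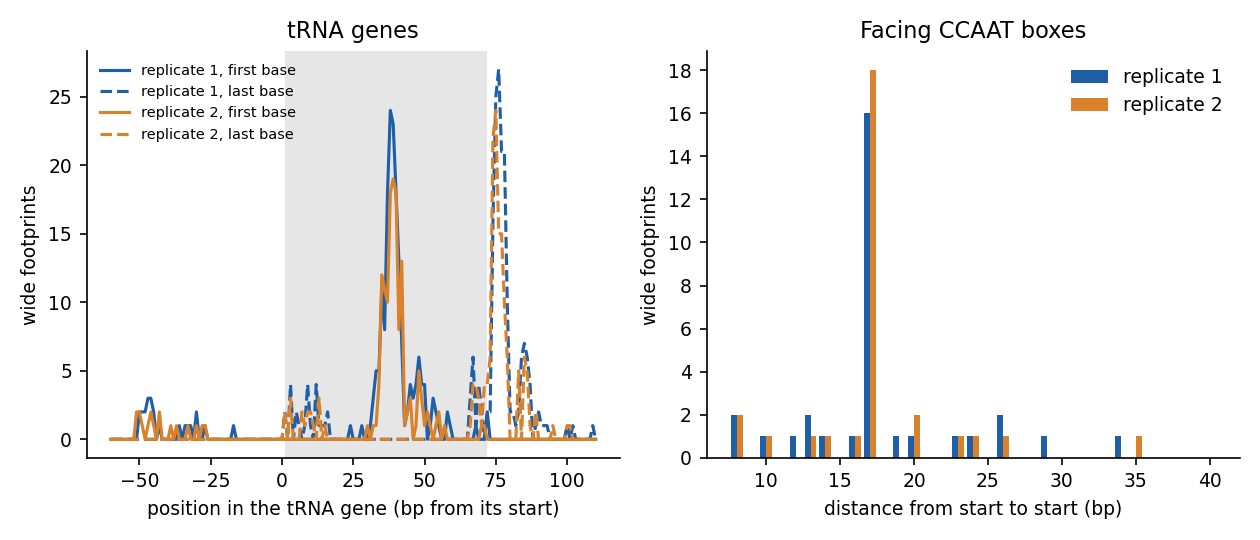
Left, number of wide footprints by the position of their first base (solid) and last base (dashed) in tRNA genes, with the median gene length of 72 bp in grey. Right, number of wide footprints holding facing CCAAT boxes at each distance from start to start, with 16 and 18 footprints at 17 bp.

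The 10 widest footprints of both animals measured 64 to 80 bp in replicate 1 and 54 to 79 bp in replicate 2. Of these, 5 lay in promoters, those of Ccnj, Leprot, Ccdc66, Zmynd8 and Parp2. Ccnj encodes a cyclin, Leprot a regulator of receptor trafficking and Parp2 a poly-ADP-ribose polymerase of DNA repair. The Ccnj footprint (chr19:40831186-40831251, 60 bp upstream of the start) measured 66 and 68 bp and repeated a stretch of 9 bases that holds ATTGG. The Col18a1 footprint (chr10:77130730-77130794, intron) measured 65 and 64 bp and repeated a stretch of 15 bases at a distance of 34 bp. The longest repeated stretch of each is in capitals here.
Ccnj: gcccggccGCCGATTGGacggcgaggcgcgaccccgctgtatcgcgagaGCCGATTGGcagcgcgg
Col18a1: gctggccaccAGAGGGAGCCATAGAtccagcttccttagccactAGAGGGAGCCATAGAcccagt

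The remaining members of this set varied in kind. The widest of both, and of replicate 2, lay on chromosome Y (chrY:90744671-90744750), in intergenic DNA with 71.2% G or C, and measured 80 and 79 bp. The next, of 73 and 75 bp on chromosome 4 (chr4:67208571-67208643), was a simple repeat with 14 copies of cagac and 100% of its bases soft-masked, in low peaks of 1.54 and 1.68. Reads in repeats can be placed ambiguously, and how they were handled is not given in the sources used here. Footprints nearest to Eef2k and Slc9a3r1 completed the 10. The widest footprint of replicate 1 lay in an exon of Pola2, a subunit of DNA polymerase alpha (chr19:5956826-5956916). It measured 91 bp, but the footprint overlapping it in replicate 2 measured 35 bp.

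Among the 5 wide footprints in the highest peaks of both animals were 2 in the promoter of Bahcc1 and 1 in that of Acin1, which encodes a protein of the exon junction complex. The Bahcc1 peak had heights of 60.5 and 31.1, and its footprints measured 36 and 35 bp and 31 and 31 bp. The Acin1 peak had heights of 53.0 and 31.6, and its footprint measured 38 bp in both animals. The Bahcc1 footprint further upstream (chr11:120232689-120232724) is printed in lower case only, since no part was singled out.
Bahcc1: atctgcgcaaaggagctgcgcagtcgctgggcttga

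Promoters with a wide footprint numbered 5921 and 4736 genes, a mean of 5328.5 ± 838 (SD, n = 2). They are 41.5% and 35.7% of the 14274 and 13258 protein-coding genes with any footprint within 1 kb of a start, and 3955 genes had one in both animals. Most had few: 3331 and 3299 genes had 1 and 887 and 317 had 3 or more. Hexim2, whose product restrains the elongation kinase P-TEFb, had 7 and 6 of its 13 and 12 promoter footprints around 5 annotated starts. Rbpj, the DNA-binding factor of Notch signalling, had 8 and 5 of 20 and 20 around 6 starts, and these genes tied for the most by the mean of both animals. A gene with more starts has a wider promoter territory, which the counts do not correct for. Jun, a subunit of AP-1, had 5 and 6 of 17 and 13 around its only annotated start. Rnf126, a ubiquitin ligase gene, had 6 and 5 of 20 and 12, also around 1 start, and Agbl5, which encodes an enzyme that shortens glutamate tails on tubulin, had 6 and 5 of 15 and 15 around 9 starts. Cirbp, a cold-inducible RNA-binding protein gene, had 8 and 2. Hnrnpul1, an RNA-binding protein gene, had 5 and 5, and Pop7, a subunit gene of ribonuclease P, had 7 and 3. Cryz and Tyw3 had 6 and 4 each, and their closest starts lie 40 bp apart, so they share footprints.

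Gene lists were read against those shares of 41.5% and 35.7%, as counts with no test. In the list of cohesin, CTCF and insulator genes, 8 and 8 of 12 genes had a wide promoter footprint. Its members with the most were Stag1, a cohesin subunit (3 and 3), Zfp143, the mouse gene of ZNF143 (4 and 2), and Smc3, another cohesin subunit (4 and 2). Among immediate early genes, induced by neuronal activity, 9 and 9 of 15 had one, led by Jun, the phosphatase gene Dusp1 (4 and 3) and the transcription factor gene Egr1 (3 and 3). Housekeeping genes had one at 12 and 10 of 20, led by the ribosomal gene Rplp0 (4 and 3), the actin gene Actb (2 and 3) and Ppia (2 and 2). In the respiratory chain list, 12 and 10 of 20 had one, led by Atp5b (3 and 3), Ndufb8 of complex I (3 and 1) and Timm50, a mitochondrial import gene (2 and 2).

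Lists of cell type genes varied more. Of 20 granule cell genes 8 and 10 had a wide promoter footprint, near the share of all genes in replicate 1 and above it in replicate 2, led by the Rac activator Tiam1 (5 and 2), the NFI factor Nfia (3 and 3) and Rbfox3 (2 and 1), which encodes the antigen NeuN. Of 20 synapse and neuronal genes 6 and 5 had one, led by the tau gene Mapt (2 and 4), the active zone gene Bsn (3 and 2) and the vesicle gene Vamp2 (3 and 2). Of the Purkinje cell genes with a promoter footprint, 3 of 13 and 2 of 12 had a wide one, and Pcp4 (2 and 1) was the only gene with one in both animals. In the astrocyte and Bergmann glia list 2 of 14 and 4 of 12 had one, with the glutamine synthetase gene Glul (1 and 1) in both. The oligodendrocyte list had 1 of 9 and 0 of 5, the microglia list 0 of 3 in both animals, and the liver list 1 of 2 and 0 of 2. Wide footprints were rare in low peaks, and the part of peak height in these counts was not tested.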

How the data were processed

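DNase-seq of cerebellum from 2 mice was used through the processed files the authors deposited, which are on the assembly mm10, per the labels, and were made per animal from its own alignments, per the descriptions deposited with them. Aligner, peak caller, footprint caller and depth: not given in the sources used here, so no interval was computed. The deposited peak lists hold a signal, the height of each peak, whose scaling is not given. The authors also deposited false discovery rates, read here as p-value data, for stretches below 0.05 only. Each deposited footprint carries 1 constant entry in its p-value column, 0.01, so only positions were used.

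Footprints of 31 bp or more were annotated by their midpoint in python 3.11.15 with numpy 2.4.6 and pandas 2.3.3. Annotation was GENCODE M21 (54329 protein-coding starts), and sequences and tRNA genes came from RefSeq GRCm38.p6. Place was assigned as promoter (1000 bp on both sides of a start), exon, intron or intergenic, in that order. The enclosing peak was the highest peak of the larger list holding the midpoint. Motifs were exact matches on both strands in the central 31 bp. Interval and motif functions were tested on simulated data.

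Members, gene lists and motifs were chosen with earlier results of these data known. Named footprints were the 10 widest in both animals (overlap of 50% of both, by mean width), the 5 in the highest peaks by mean rank, and the widest per animal. Named genes were the 10 with the most wide promoter footprints and, in each of 11 lists, the 3 with the most in both animals. Sequences on chromosome 18 or touching an annotated UTR were not printed. The other 2 footprints in the highest peaks are not reported here. CTCF examples by form, tRNA genes, the B box, GCANTNCC and the CCAAT boxes were chosen after values were seen. Alternatives changed the width minimum, the promoter window, the starts, the peak list, the overlap and the motif window, and left out each animal.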

Additional observations from a re-analysis of the deposited data

How the results depend on the processing

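Of 30 alternative values over 9 results that keep both animals, 22 stayed within the spread between the animals, or within 1.5 times for counts. That spread (SD, n = 2) was 26.2 percentage points for the matched share and 0.69 for the CTCF share. How many values stay within it therefore depends on how far the 2 lists differ, and says little about stability. With a minimum of 26 bp the mean number was 39849.5 and the share 12.9%; with 36 bp they were 10337.5 and 3.33%, and genes with a wide promoter footprint numbered 3221. The share with the CTCF consensus was 16.2% outside promoters, 9.23% with 36 bp and 28.6% with at most 1 mismatch. The changes in number, share and genes with the minimum follow from its construction. The CTCF share need not change with it. By width that share was 12.4% and 13.02% at 31 to 35 bp and 4.33% and 5.56% at 36 to 40 bp. It was 12.6% and 13.9% at 41 to 50 bp and 3.81% and 2.94% at 51 bp or more. The cause of these differences was not tested. With 2 animals, leaving out either cannot move a mean beyond their SD, so these values say nothing about stability. They were 14106 to 27410 footprints, shares of 5.37% to 8.01%, promoter shares of 31.2% to 40.8%, height ratios of 2.56 to 3.80, matched shares of 39.3% to 76.4%, 25.2% to 34.6% within 250 bp of a start, 4736 to 5921 genes, CTCF shares of 10.5% to 11.47% and widths in the other animal of 29 to 35 bp. No paired analysis was possible because the animals form 1 group. The depth behind each list is unknown, and replicate 1 has the longer list, so differences in number between the animals cannot be told apart from depth.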

Other observations

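On chromosome X, 6.29% and 4.445% of footprints were wide. This was below each of the 19 autosomes, whose lowest and highest shares were 7.16% and 8.71% in replicate 1, with 4.72% and 5.88% in replicate 2. Chromosome Y held 5 and 2 wide footprints.

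The 8-base words of wide footprints were counted on both strands in the central 31 bp and ranked by their ratio to narrower footprints. The words below were picked from the highest ranks of each width class, so their higher share follows from that choice. At 36 to 40 bp the word GGGTTCGA, part of the B box of tRNA genes, stood in 1.01% and 1.71% of footprints, against 0.0311% and 0.0334% of narrower ones. At 41 to 50 bp the word GCAGTACC stood in 1.24% and 1.58%, against 0.0921% and 0.0813%. At 31 to 35 bp the CTCF word AGGGGGCA stood in 4.615% and 4.69%, against 0.522% and 0.632%.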
